A study of Homo sapiens with 4 samples.

Results

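The SLAM family (signalling lymphocytic activation molecules) and its signalling partners were followed by RNA sequencing of the human multiple myeloma line ARP-1. There were 2 wild-type libraries (WT, replicates 1 and 2) and 2 libraries of cells with carfilzomib resistance (CfzR, replicates 1 and 2), 4 in all. Carfilzomib is a proteasome inhibitor used in myeloma. Drug dose, length of exposure, whether drug was present at harvest, and whether the resistant cells are a clone or a pool are not stated in the labels. Genes were chosen by name: 6 receptors of the cluster in band 1q23 (SLAMF7, LY9, CD48, SLAMF1, SLAMF6 and CD84) and 4 partners (SH2D1A, SH2D1B, INPP5D and FYN). Of these 10 genes, 5 had a row among the 15201 gene IDs of the deposited table, namely SLAMF7, LY9, CD48, SH2D1B and FYN. The other 5 had no row, so their levels were not analysed here. The choice was made with results of the WT and CfzR comparison known, SLAMF7 foremost. Its values for these 5 genes are therefore a description, and their p-values say only where the fit across all genes placed them.

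SLAM receptors are cell surface proteins of the immunoglobulin superfamily, and most of them bind the same receptor on a neighbouring cell. Their cytoplasmic tails carry tyrosine-based switch motifs which, once phosphorylated, are bound by the small SH2-domain adaptors SH2D1A (SAP) and SH2D1B (EAT-2). SAP recruits the Src-family kinase FYN, whereas phosphatases such as SHP-1 (PTPN6), SHP-2 (PTPN11) and SHIP-1 (INPP5D) can bind the same motifs and dampen the signal. SLAMF7 is abundant on normal and malignant plasma cells and is the target of the antibody elotuzumab.

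The sequences below show matches to the kinds of motif named above, in the receptors and the adaptor whose levels differed most between the groups. They are runs of coding sequence from GENCODE release 29 (GRCh38), found in 1 principal transcript per gene. Capitals mark the codons of the motif and lower case the 15 bases on either side. In the receptors the motif was a threonine 2 codons before a tyrosine, with a valine or isoleucine 3 codons after it. In SH2D1B it was the stretch of the SH2 domain around the arginine that holds the phosphate (phenylalanine, leucine, then valine, leucine or isoleucine, arginine, aspartate or glutamate, serine).
SLAMF7 first switch motif: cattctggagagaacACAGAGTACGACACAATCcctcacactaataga
SLAMF7 second switch motif: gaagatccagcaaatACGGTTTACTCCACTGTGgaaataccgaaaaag
LY9 first switch motif: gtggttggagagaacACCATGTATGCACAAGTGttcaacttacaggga
LY9 second switch motif: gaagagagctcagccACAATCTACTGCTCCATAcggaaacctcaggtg
SH2D1B phosphate pocket: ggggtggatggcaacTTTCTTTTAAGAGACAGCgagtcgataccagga

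SLAMF7 and LY9 held 2 such matches each, as did SLAMF1, SLAMF6 and CD84, which had no row, while CD48 held 0. FYN held 1 match to the SH2 stretch and SH2D1A held 0. The SLAMF7 runs lie on the plus strand at chr1:160751404-160752188, across the junction of exons 5 and 6, and at chr1:160752201-160752248 in exon 6. Those of LY9 lie on the plus strand at chr1:160823752-160824183 (exons 8 and 9) and chr1:160824205-160827750 (exons 9 and 10). That of SH2D1B lies on the minus strand at chr1:162411903-162411950, in exon 1. Among 19530 genes with a complete coding sequence, of all lengths, 8.21% held at least 1 match to the switch motif and 0.261% to the SH2 stretch. A match describes the letters only and says nothing about use of the site in these cells.

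Levels are FPKM (fragments per kilobase of transcript, scaled to the mapped fragments of the library), so genes can be set side by side within the table. Library CfzR 1 had the lowest sum of FPKM (673265, against 877849 to 955284 in the other 3). Correlations of log2 values across genes were 0.983 within WT and 0.968 within CfzR. Pairs across groups had 0.947 to 0.975. CfzR 2 was closer to WT 1 and WT 2 (0.975 and 0.973) than to CfzR 1. The line's plasma cell character was visible in all libraries: 10 of 12 plasma cell markers had a row, and their summed level ran from 5995 to 6083 FPKM in WT and from 6176 to 6744 in CfzR. JCHAIN, the joining chain of secreted antibodies, made up most of it (3613 and 3493 FPKM in WT, 4601 and 3838 FPKM in CfzR). Without it the sum of the other 9 was 2382 to 2591 FPKM in WT and 2142 to 2338 in CfzR. Nothing in the labels ties the replicates to separate cultures. The p-values therefore reflect the spread between the libraries at hand, possibly a technical one.

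Differences between groups were fitted with limma on log2(FPKM + 1), a scale that shrinks the differences of weakly expressed genes, over the 13411 genes whose mean reached 1 FPKM. A gene was counted as changed at a Benjamini-Hochberg adjusted p under 0.05 over all of these genes. By that rule 0.35% of tested genes were changed (0.246% higher and 0.104% lower in CfzR). Of the 5 SLAM genes, SLAMF7 was higher, 0 were lower and 4 did not pass. The median log2 fold change of the 5 was 1.05, against -0.02 over all tested genes. SLAMF7 and LY9 had WT means below the 1 FPKM minimum and entered the fit only through their CfzR levels, so they had to differ. The other 3 exceeded it in both groups.

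**Figure D1:**
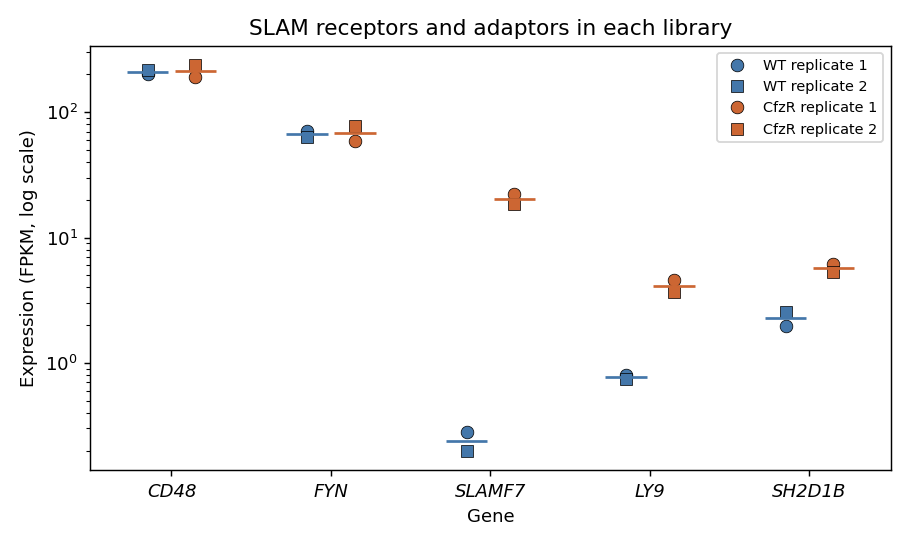
Expression (FPKM, log axis) of the 5 SLAM genes in each of the 4 libraries (points) with the mean of each group (lines). SLAMF7 moves from the lowest of the 5 genes in WT to the third in CfzR, while CD48 and FYN overlap between groups.

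SLAMF7 (ENSG00000026751, chr1:160739057-160754821, plus strand) showed the largest difference of the 5. It stood at 0.282 and 0.198 FPKM in WT replicates 1 and 2, and at 22.1 and 18.7 FPKM in CfzR replicates 1 and 2. Both resistant libraries lay far above both wild-type libraries. The group means were 0.240 ± 0.0591 and 20.4 ± 2.42 FPKM (SD, n = 2 each), an 84.8-fold difference. The log2 fold change was 4.10 (SE 0.22, limma adjusted p = 5.25e-04), the 5th highest of all tested genes. The fold rests on a wild-type level near the floor of the table: SLAMF7 exceeded 2.07% and 1.31% of the table's genes in the WT libraries, and 72.7% and 68.5% in the CfzR libraries. In bulk RNA, more cells with SLAMF7 transcripts and more transcripts per cell cannot be told apart.

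LY9 (CD229, ENSG00000122224, chr1:160796074-160828261, plus strand), a receptor that binds itself on other cells, lies next to SLAMF7. Its levels were 0.795 and 0.741 FPKM in WT, against 4.59 and 3.66 FPKM in CfzR. The groups did not overlap, and the CfzR mean of 4.13 ± 0.657 FPKM was 5.38 times the WT mean of 0.768 ± 0.0382 (SD, n = 2 each). The log2 fold change of 1.53 (SE 0.24) did not pass the threshold (limma adjusted p = 0.0736), with a 95% interval of 0.97 to 2.09. Without WT replicate 1 or 2 the log2 fold change of LY9 was 1.55 and 1.51. Without CfzR replicate 1 or 2 it was 1.40 and 1.66. Each of these fits leaves 1 library in a group, so only the size of the difference is given.

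CD48 (ENSG00000117091, chr1:160678746-160711851, minus strand) is held in the membrane by a glycolipid anchor, has no signalling tail, and is the ligand of the SLAM receptor CD244. It was the most abundant of the 5 genes in all 4 libraries. Its levels were 203 and 216 FPKM in WT, against 191 and 237 FPKM in CfzR, so the CfzR values enclosed the WT values. The log2 fold change was 0.02 (SE 0.24, limma adjusted p = 0.979), with a 95% interval of -0.54 to 0.58, which leaves room for changes of that size. Leaving out WT replicate 1 or CfzR replicate 2 gave it the opposite sign (-0.03 and -0.13).

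These receptor levels can be put as shares of the summed FPKM of SLAMF7, LY9 and CD48. CD48 made up 99.5% and 99.6% of that sum in WT and 87.7% and 91.4% in CfzR. SLAMF7 made up 0.138% and 0.0913% in WT and 10.1% and 7.20% in CfzR. For each SLAMF7 unit of FPKM there were 719 and 1090 of CD48 in the WT libraries, and 8.65 and 12.7 in the CfzR libraries. The order of the pair with tails also turned: SLAMF7 stood at 0.355 and 0.268 times the level of LY9 in WT, and at 4.81 and 5.09 times in CfzR.

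SH2D1B (EAT-2, ENSG00000198574, chr1:162395266-162412138, minus strand) is the adaptor through which SLAMF7 signals in natural killer cells. Its levels were 1.99 and 2.54 FPKM in WT, against 6.18 and 5.31 FPKM in CfzR. Both CfzR libraries lay above both WT libraries, at means of 5.74 ± 0.614 against 2.26 ± 0.392 FPKM (SD, n = 2 each), a ratio of 2.54. The log2 fold change of 1.05 (SE 0.22) did not pass the threshold (limma adjusted p = 0.152), with a 95% interval of 0.52 to 1.58. Without WT replicate 1 or 2 the log2 fold change of SH2D1B was 0.93 and 1.17. Without CfzR replicate 1 or 2 it was 0.96 and 1.14. As for LY9, only the size is given for these fits.

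FYN (ENSG00000010810, chr6:111660332-111873452, minus strand), the Src-family kinase that SAP brings to SLAM receptors, was the second most abundant of the 5 genes in each library. Its levels were 70.2 and 62.9 FPKM in WT, against 59.1 and 77.5 FPKM in CfzR, and the groups overlapped. The log2 fold change was 0.03 (SE 0.22, limma adjusted p = 0.969), with a 95% interval of -0.50 to 0.55. Its sign turned without WT replicate 2 (-0.05) or CfzR replicate 2 (-0.17).

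From high to low, the order in both WT libraries was CD48, FYN, SH2D1B, LY9 and SLAMF7, and in both CfzR libraries CD48, FYN, SLAMF7, SH2D1B and LY9. Neighbours in the order stood in the same order in both libraries of a group. The closest pair was SH2D1B and LY9 in CfzR, at 5.74 ± 0.614 and 4.13 ± 0.657 FPKM (SD, n = 2 each); SH2D1B in replicate 2 (5.31) was above LY9 in replicate 1 (4.59). Groups did not overlap for 3 of the 5 genes, SLAMF7, LY9 and SH2D1B, all with higher CfzR values. Over all tested genes 44.7% did not overlap, and 22.1% did so with higher CfzR values. The 3 of 5 cannot be weighed against these shares, since SLAMF7 and LY9 entered the fit only through their CfzR levels.

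**Figure D2:**
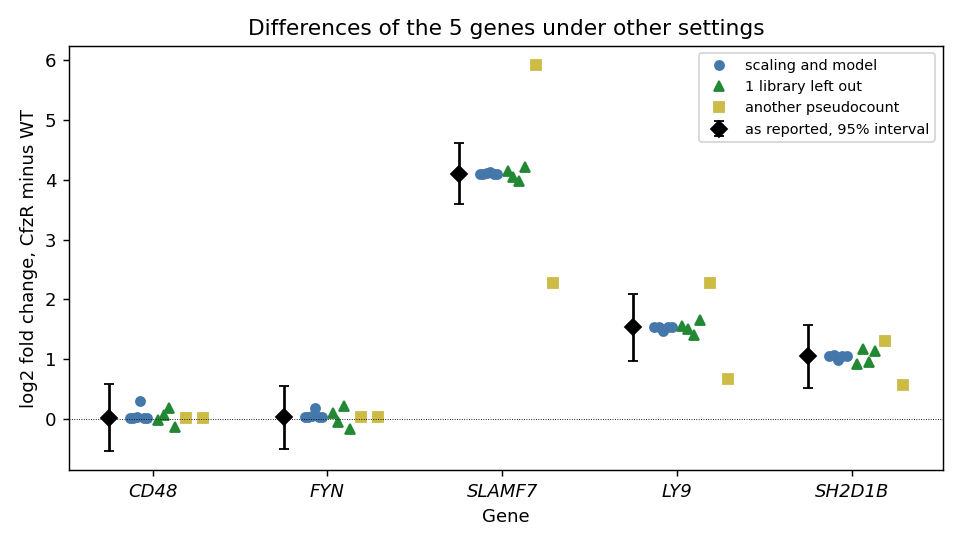
Log2 fold change (CfzR minus WT) of the 5 genes as reported, with its 95% interval (black), and under other settings (coloured points). SLAMF7, LY9 and SH2D1B stay above 0 in all settings shown, their size moves with the pseudocount, and CD48 and FYN lie on both sides of 0.

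The SLAM receptors lie side by side, and the genes around them were examined next. In the window from 2 Mb before to 2 Mb after the receptor cluster (chr1:158485030-162828261), 45 genes were tested, among them CD48, SLAMF7, LY9 and SH2D1B. The 41 genes other than these 4 had a median log2 fold change of -0.09, with 16 positive and 25 negative. Of the 41, 1 passed the threshold, against 0.35% of all tested genes. In chromosome order among tested genes, CD48, SLAMF7 and LY9 were consecutive, with log2 fold changes of 0.02, 4.10 and 1.53. The tested gene before CD48 was NCSTN, a subunit of gamma-secretase, at 20.6 and 17.6 FPKM in WT, against 24.1 and 21.5 FPKM in CfzR (log2 fold change 0.25). The tested gene after LY9 was ENSG00000213080 (0.05), followed by F11R, which encodes the junctional adhesion molecule JAM-A.

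F11R stood at 3.21 and 3.60 FPKM in WT, against 7.82 and 6.07 FPKM in CfzR. The groups did not overlap, but the log2 fold change of 0.84 did not pass (limma adjusted p = 0.236). The gene that passed was IFI16, a nuclear DNA sensor induced by interferon, 1739 kb before the start of SLAMF7. Its WT levels were 3.52 and 3.83 FPKM, and it rose to a CfzR mean of 11.8 ± 0.229 FPKM (SD, n = 2; log2 fold change of 1.45, SE 0.20, limma adjusted p = 0.0457). This call was narrow. Its adjusted p was 0.0614 without the filter on low values, 0.0585 with a filter at 5 FPKM, 0.0508 under quantile normalization, 0.0525 without a mean-variance trend, and 0.185 and 0.0875 without CfzR replicate 1 or 2.

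**Figure D3:**
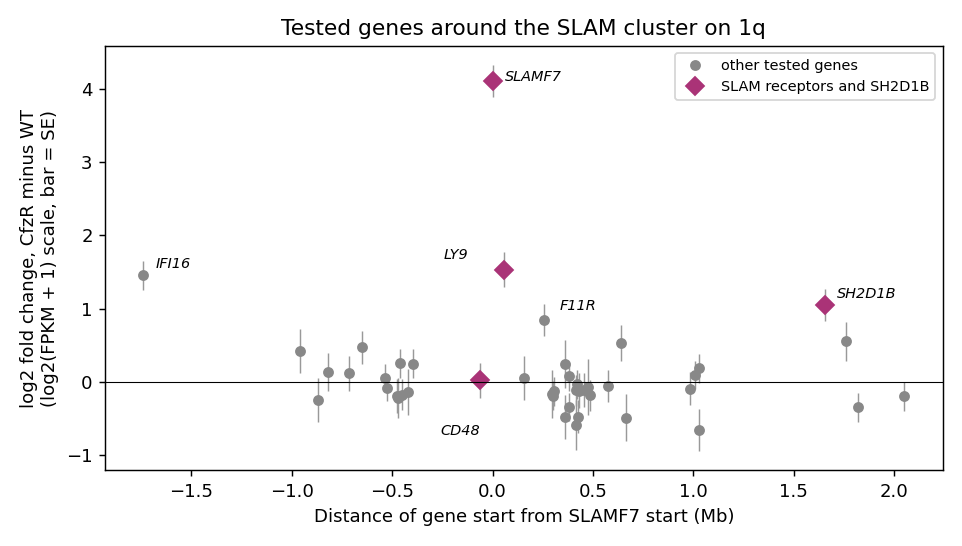
Log2 fold change (CfzR minus WT, bars show SE) of the 45 tested genes around the SLAM cluster against the distance of their start from that of SLAMF7, in Mb. SLAMF7 stands at 4.10 while CD48 beside it lies near 0, and most other genes lie between -0.5 and 0.5.

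A hand-written list of 64 genes of 1q23 overlaps that window. All of its tested genes are among those of the window, so it adds no separate support. Of its 32 tested genes 2 rose, SLAMF7 and IFI16, 0 fell and 30 did not pass, with a median log2 fold change of -0.01. Over all tested genes 0.246% rose, but SLAMF7 was chosen with its difference known, so the count cannot be weighed against that share. Away from the cluster, the largest differences among those that did not pass, beside LY9 and F11R, were in PFDN2, a subunit of the prefoldin chaperone (-0.48), and PPOX, an enzyme of haem synthesis (-0.48).

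Partners of SLAM receptors were counted from lists written from textbook knowledge. Of 6 related receptors and ligands, 2 had a row and neither passed. CD58, which pairs with CD2, stood at 23.8 and 20.9 FPKM in WT, against 22.3 and 21.1 FPKM in CfzR. CD59, a complement inhibitor, had a log2 fold change of -0.14. CD244, SLAMF8, SLAMF9 and CD2 were not analysed here.

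Among Src kinases, phosphatases and their regulators, 14 of 21 were tested, 0 rose, 1 fell and 13 did not pass. Their median log2 fold change was -0.08. Over all tested genes 0.104% fell. FGR, a Src-family kinase of myeloid and B cells, fell from 7.53 and 6.76 FPKM in WT to 1.73 and 1.59 FPKM in CfzR. Its log2 fold change was -1.62 (SE 0.21, limma adjusted p = 0.0420). This call too was narrow, with a limma adjusted p of 0.0517 without the filter on low values. FGR passed with other pseudocounts, other scaling and no mean-variance trend, at limma adjusted p of 0.0398 to 0.0446. With 1 library left out its log2 fold change ran from -1.68 to -1.55. FGR was not tested with a filter at 5 FPKM. The other Src-family kinases tested showed smaller differences: LYN had a log2 fold change of -0.06 and YES1 one of 0.14.

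PTPRC encodes CD45, the membrane phosphatase that removes inhibitory phosphate from Src kinases. It stood at 3.84 and 4.06 FPKM in WT, against 11.8 and 7.51 FPKM in CfzR. The groups did not overlap, yet the log2 fold change of 1.08 did not pass (SE 0.25, limma adjusted p = 0.188). PTPN6 (SHP-1), a phosphatase bound by switch motifs, stood at 391 and 476 FPKM in WT, against 232 and 357 FPKM in CfzR, a log2 fold change of -0.58 that did not pass (limma adjusted p = 0.511). PTPN11 (SHP-2) had a log2 fold change of 0.42, with 13.5 and 12.6 FPKM in WT, against 21.8 and 14.4 FPKM in CfzR. INPPL1 (SHIP-2), a relative of INPP5D, had one of -0.16. The ubiquitin ligase CBLB and the transmembrane adaptor LIME1 had log2 fold changes of -0.71 and -0.59, and neither passed.

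Of 31 adaptors and effectors downstream of SLAM receptors, 29 were tested and 0 passed with limma in either direction. At an unadjusted p under 0.05 there was 1, against 11.1% of all tested genes. The median log2 fold change was 0.01, with 15 positive and 14 negative. VAV1, a lymphocyte signalling protein that SLAM signals engage, stood at 27.7 and 29.2 FPKM in WT, against 20.0 and 19.3 FPKM in CfzR (log2 fold change -0.51, limma adjusted p = 0.374). Its relative VAV2 had one of 0.47 and the phospholipase PLCG1 one of 0.48, the latter with CfzR values of 11.5 and 5.78 FPKM that lay far apart. The adaptor BCL10 had one of 0.36.

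**Figure D4:**
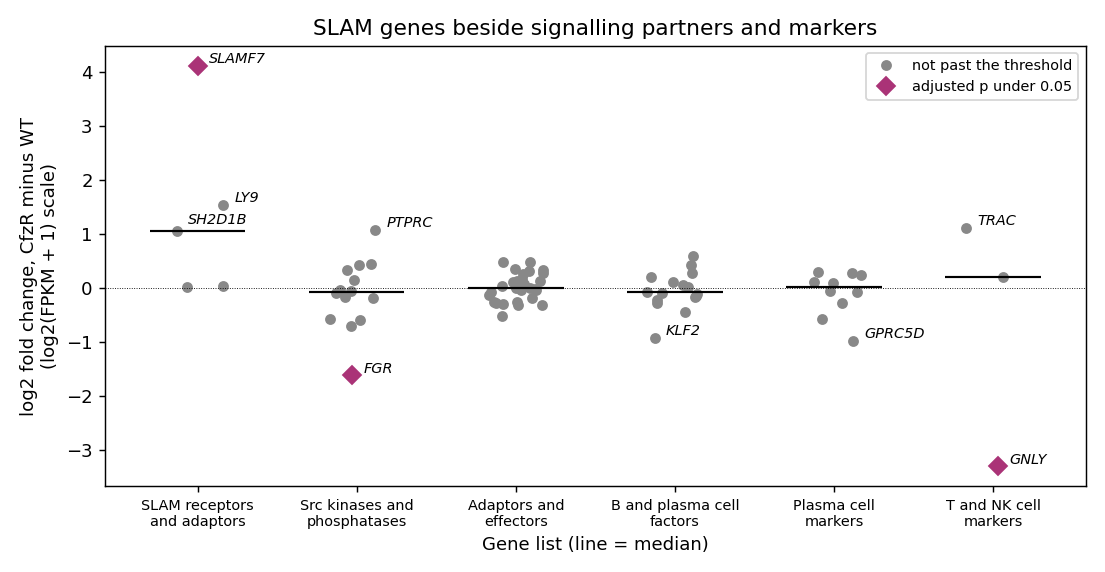
Log2 fold change (CfzR minus WT) of each tested gene in 6 lists, with the list median as a line and genes past the threshold as diamonds. SLAMF7 is the sole gene past the threshold among the SLAM genes, FGR among kinases and phosphatases and GNLY among T and NK cell markers.

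Transcription factors of B cells and plasma cells include PRDM1 (Blimp-1), IRF4, IKZF1 and IKZF3, which shape plasma cell gene expression. Of 25 listed, 16 were tested and 0 passed with limma in either direction. At an unadjusted p under 0.05 there were 2 of the 16, against 11.1% of all tested genes. The median log2 fold change was -0.08. PRDM1 stood at 145 and 129 FPKM in WT, against 182 and 152 FPKM in CfzR (log2 fold change 0.28, limma adjusted p = 0.653). IRF4, IKZF1 and IKZF3 had log2 fold changes of 0.11, -0.09 and 0.01. The largest differences were in KLF2, a factor of lymphocyte quiescence and homing (-0.92), and ETS1, a lymphoid factor (0.59), followed by RUNX3 (-0.44) and IRF2 (0.43).

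SLAM receptors and SH2D1B are also expressed by other blood cells, so their markers were examined. Of 18 T cell and NK cell markers, 3 had a row and 15 were not analysed here. Their summed level was 42.7 to 48.0 FPKM in WT and 37.0 to 42.1 in CfzR, and none was at 0. GNLY, a cytolytic granule protein, fell from 23.4 and 25.2 FPKM in WT to 1.35 and 1.80 in CfzR (log2 fold change -3.30, limma adjusted p = 0.00113). TRAC, the T cell receptor alpha constant gene, stood at 15.9 and 9.90 FPKM in WT, against 29.4 and 27.4 FPKM in CfzR. It did not pass (log2 fold change 1.11, limma adjusted p = 0.175). With 1 library left out its log2 fold change ran from 0.80 (without WT replicate 2) to 1.43 (without WT replicate 1). NCAM1 had a log2 fold change of 0.19.

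Of 10 B cell markers, 2 had a row and neither reached the minimum for testing, with summed levels of 1.24 to 1.52 FPKM in WT and 1.65 to 2.05 in CfzR. Of 12 monocyte and granulocyte markers, only CD68, a lysosomal protein, had a row, at 0.681 and 0.848 FPKM in WT, against 2.10 and 1.09 FPKM in CfzR. Of the 10 plasma cell markers tested, 0 passed with limma and 1 had an unadjusted p under 0.05, against 11.1% of all tested genes. That marker was GPRC5D, an orphan receptor of plasma cells, at 79.6 and 93.7 FPKM in WT, against 44.1 and 42.4 FPKM in CfzR. TNFRSF17 stood at 312 and 382 FPKM in WT, against 194 and 275 FPKM in CfzR (log2 fold change -0.58). XBP1, SDC1 (CD138) and CD38 had log2 fold changes of -0.29, 0.29 and 0.09. Of the 10, 5 had a positive log2 fold change and 5 a negative one. The part of these markers in the SLAM differences was not tested.

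The 5 genes with profiles nearest to that of SLAMF7 over the 4 libraries all lie on chromosome 7. Likeness was the Euclidean distance between log2(FPKM + 1) values centred on each gene's mean, over 13406 genes. The nearest was CROT, a peroxisomal acyltransferase, at a distance of 0.48, with 2.59 and 2.51 FPKM in WT, against 45.0 and 41.1 FPKM in CfzR. Next came the mitochondrial carrier SLC25A40 (0.62), the noncoding RNA TP53TG1 (0.96), ENSG00000273014 (1.17) and the pseudogene ZNRF2P1 (1.24). CROT, SLC25A40 and TP53TG1 lie close together (chr7:87325225-87876357), and ENSG00000273014 and ZNRF2P1 lie together elsewhere (chr7:32728569-32759353). The WT means of ENSG00000273014 and ZNRF2P1 were 0.0782 and 0.430 FPKM, so they entered the fit only through their CfzR levels. With 4 libraries in 2 groups, this measure mainly ranks genes by the size of the group difference.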

How the data were processed

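The authors deposited 1 table of FPKM values with 1 column per library. Per the submitters' processing notes, the tools were STAR and Cufflinks; for tool versions, genome build, annotation and strandedness, nothing is given in the sources used here. TRIzol RNA went into mRNA libraries, per the labels' protocols. Control columns were assigned to WT, the only other group. A search for the value of 1 read found none (of at least 2090 genes under 1.5 FPKM in a pair of libraries, at most 4 shared a ratio), so depth and counting error are unknown. The lowest row mean was 0.5 FPKM.

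Symbols matched 15027 of 15201 IDs; positions (14496 IDs) and coding sequences are from GENCODE release 29 (GRCh38), not from the authors. Values were tested as log2(FPKM + 1) at a mean of at least 1 FPKM with limma 3.58.1 in R 4.3.3 (eBayes with trend, two-sided, Benjamini-Hochberg adjustment over 13411 genes). The fit was tested on simulated data. Permuting 4 libraries allows only 3 divisions, so no permutation test was run.

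The members and lists were chosen with earlier results of these data known. Named are all members with a row, list genes past the threshold and up to 4 others per list with the largest differences, genes next to the receptors, and the 5 nearest to SLAMF7. Other genes were named after their values were seen. Alternatives covered pseudocounts, filters, scaling, the variance model, a replicate block, each library left out and stricter thresholds.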

Additional observations from a re-analysis of the deposited data

How the results depend on the processing

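SLAMF7 passed under each alternative fit that kept all 4 libraries, with log2 fold changes of 2.27 (pseudocount 5) to 5.92 (pseudocount 0.1). Over all genes, counts higher and lower were 33 and 14, against 18 and 9 with a filter at 5 FPKM, and 9 and 6 at a threshold of 0.01. With 1 library left out they ran from 8 to 118 and from 7 to 142, and 1 to 2 SLAM genes were higher. Replicate numbers are not stated to pair the libraries (correlation of replicate differences across genes 0.252). With a replicate block, which leaves few residual degrees of freedom, 487 genes were higher and 755 lower. The 3 SLAM genes higher were SLAMF7, LY9 (limma adjusted p = 5.61e-06) and SH2D1B (0.0014). With the block the log2 fold changes of SLAMF7 and LY9 were unchanged and their SEs larger (0.252 and 0.283, against 0.216 and 0.238). Their lower p-values thus came from its variance model, so calls under the block are not stronger evidence. Among genes of the other lists, the main fit had 1 higher (IFI16) and 2 lower (FGR and GNLY). These counts were 0 and 1 without a filter, with a filter at 5 FPKM, at a threshold of 0.01 and at an absolute log2 fold change of at least 2. The higher count was 0 under quantile normalization and without a trend. Both counts were 4 with the block (higher: IFI16, F11R with limma adjusted p = 0.0113, PTPRC with 2.91e-04 and TRAC with 1.61e-05). CD48 turned sign without 1 library, in a range of -0.133 to 0.175, and FYN in a range of -0.166 to 0.220. LY9 and SH2D1B were not tested with a filter at 5 FPKM. The cause of the remaining shifts was not tested. Depth is unknown, so levels as low as those of SLAMF7 and LY9 in WT carry an unknown counting error.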
